A study of Arabidopsis thaliana with 8 samples.

Results

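QQS and 8 other protein-coding genes of Arabidopsis thaliana, all outside 1 stretch of chromosome 1, had a signal at least 4-fold higher in the mutant line 15B than in the CHS-silenced line it was derived from. They were chosen on the values of this same comparison: a fold change of at least 2 on the log2 scale, computed on log2(signal + 10), with every 15B array above every array of the silenced parent. Among 12149 protein-coding genes measured by exactly 1 probe set that names 1 gene, 12 met this (0.0988%). Of these 12, 2 lie in the chromosome 1 segment from AT1G56720 to AT1G66100 and were left out. A further gene, AT1G32010, met the rule but was not among the listed loci. Its mean signal over the 8 arrays, 23.8, was under the level of 30 used to filter dim probe sets. The remaining 9 genes, out of 13286 loci with a probe set naming 1 gene, are described here. Because the choice used the line difference, the differences of the 9 genes are given as a description, with no test.

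The tested line, 15B, is an ethyl methanesulfonate mutant in the Landsberg erecta (Ler) background, and the labels do not state which gene is altered in it. Its reference is the parent line, also Ler, homozygous for a single insert. That insert holds an additional CHS copy, coding for chalcone synthase, and the resident gene is silenced through it. Both lines therefore share the silencing insert, and each is a single line, so a difference may belong to any locus at which they differ. The series title names hog1, and HOG1 encodes S-adenosylhomocysteine hydrolase. Seedlings of both lines grew under the same conditions, at 22 degrees C with 18 h of light on agar of 0.7% with 1% sucrose after 3 days at 4 degrees C, to growth stage 1.04. RNA came from total tissue, 10 plants were pooled, and 4 biological replicates of each line were hybridised to ATH1 arrays. In such bulk tissue, fewer cells of a type and less RNA per cell cannot be told apart.

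S-adenosylhomocysteine hydrolase removes the product that blocks methyltransferases, so DNA methylation in plants depends on it. Methylated DNA keeps transposons and some genes near them silent. QQS (QUA-QUINE STARCH) is an orphan gene, without recognised relatives in other species, that lies among transposon remnants. It is known as a gene whose transcription varies with the DNA methylation around it, and its small protein affects how leaves divide carbon between starch and protein. For the other 8 genes the annotation used here gives a locus number and the biotype protein-coding but no function, so they are named by locus.

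On the array level, scanner background lay between 93.7 and 101 in 15B and between 77.6 and 94.3 on 3 arrays of the silenced parent, against 198 on its replicate 4. Outlier cells numbered 403 to 505 on 3 arrays of 15B and 1353 on its replicate 2. The actin 3' to 5' signal ratio, a measure of RNA integrity, was 4.26 to 6.47 in 15B and 4.79 to 8.28 in the silenced parent. For GAPDH it was 1.41 to 1.91 in 15B and 1.59 to 2.3 in the silenced parent. For ubiquitin it was 2.6 to 3.49 in 15B and 3.07 to 3.92 in the silenced parent. The mean ratio was higher in the silenced parent for each control. The part of RNA integrity in the results was not tested. Of 13822 tested probe sets, 432 were higher (3.13%) and 494 lower (3.57%) in 15B by limma with Benjamini-Hochberg adjustment at 0.05. Higher signal on every 15B array than on every parent array, without a limit on size, was seen for 4.36% of the tested protein-coding probe sets.

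QQS (AT3G30720, chromosome 3, probe set 256940_at) had signals of 847.0, 843.7, 987.3 and 979.5 on the 4 arrays of 15B, against 190.9, 206.7, 247.1 and 134.9 on the 4 arrays of the silenced parent. All 15B arrays lay within a narrow band, and the lowest of them was 3.41 times the highest parent array. Means were 914 ± 79.8 in 15B and 195 ± 46.5 in the silenced parent (SD, n = 4 each), a ratio of means of 4.69 and a log2 fold change of 2.2. All 4 parent arrays were also above the filter level, so QQS had a measurable signal in the silenced parent. Its fold change hardly depended on the pseudocount, with 2.25 for a pseudocount of 1 and 2.09 for 30. The lowest parent value came from replicate 4, the array with the high scanner background, and the fold change was 2.04 without it and 2.32 without parent replicate 3.

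**Figure D1:**
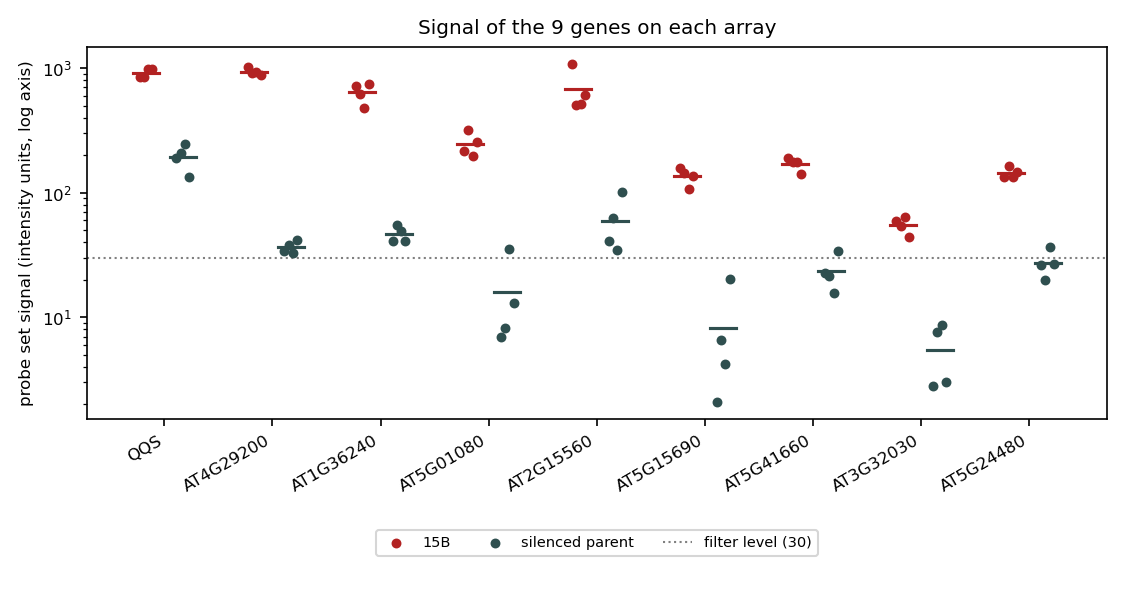
Probe set signal (intensity units, log axis) of the 9 genes on each of the 4 arrays of 15B (red, left) and the 4 arrays of the silenced parent (dark, right), with the group mean as a bar. Every 15B array lies above every parent array for each gene, and 5 of the 9 parent means lie below the dotted filter level of 30.

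AT4G29200 (chromosome 4, 253707_at) had the highest log2 fold change of the 9 genes, 4.34. Its 15B arrays were at 1011.2, 906.1, 930.6 and 873.9, against 33.9, 38.1, 33.0 and 41.6 in the silenced parent. Both groups were tight, with a coefficient of variation of 6.30% in 15B and 10.9% in the silenced parent, and means of 930 ± 58.6 and 36.6 ± 3.98 (SD, n = 4 each). Leaving out single arrays moved its fold change only between 4.29 and 4.39.

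AT1G36240 (chromosome 1, 256460_at) was at 717.3, 614.9, 480.9 and 748.3 in 15B, against 41.2, 55.2, 49.1 and 40.6 in the silenced parent. The log2 fold change was 3.51, and here 15B spread more than the silenced parent, with coefficients of variation of 18.8% and 15.0%. In the other 8 genes the relative spread was wider in the silenced parent.

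AT2G15560 (chromosome 2, 265486_at) was at 1080.7, 503.8, 513.5 and 603.0 in 15B, against 41.0, 62.3, 35.0 and 100.5 in the silenced parent. Replicate 1 of 15B stood well above the other 3 arrays of its line, and parent replicate 4 was the highest of its group. The log2 fold change was 3.31, and it was 3.07 without replicate 1 of 15B and 3.57 without parent replicate 4. Its coefficient of variation in 15B, 40.6%, was the widest of the 9 genes in that line.

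The other 5 genes had parent means under the filter level and passed the filter through their 15B signal. AT5G01080 (chromosome 5, 251127_at) was at 218.0, 318.1, 198.2 and 256.2 in 15B, against 6.9, 8.2, 35.1 and 13.1 in the silenced parent. Parent replicate 3 stood above its group here, and the log2 fold change of 3.41 became 3.72 without it. AT5G41660 (chromosome 5, 249259_at) was at 188.2, 176.0, 177.3 and 142.4 in 15B, against 22.5, 21.4, 15.8 and 34.2 in the silenced parent. For it the highest parent array was replicate 4, and the log2 fold change was 2.46, or 2.60 without that array.

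AT5G24480 (chromosome 5, 249737_at) was at 134.7, 164.5, 132.9 and 147.6 in 15B, against 26.5, 19.8, 36.4 and 26.6 in the silenced parent. The groups lay well apart, and its log2 fold change of 2.07 was the one nearest to the limit of 2. Without parent replicate 2 it was 1.96, which is under the limit.

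For 2 genes the probe sets carry the suffix _s_at, meaning that their probes match more than 1 sequence, so the signal cannot be assigned to the named locus alone. AT5G15690 (chromosome 5, 256448_s_at) was at 157.9, 143.6, 106.6 and 137.4 in 15B, against 2.1, 6.6, 4.2 and 20.2 in the silenced parent (log2 fold change 3.08). The highest parent value was again on replicate 4, and without it the fold change was 3.35. Of the 20 other named probe sets numbered within 15 of this one, 0 belong to chromosome 5, 11 to chromosome 1 and 9 to chromosome 3. For each of the other 8 genes, at least 15 such probe sets lie on the gene's own chromosome, 15 of 18 for AT5G01080, 18 of 21 for AT1G36240 and the whole set for the other 6. Within 100 loci of the gene there were 1 of 17 for QQS, 2 of 21 for AT1G36240, 12 of 26 for AT3G32030 and 13 of 17 for AT5G24480, and 0 of 20 for AT5G15690.

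AT3G32030 (chromosome 3, 256560_s_at) was dim in both lines, at 59.4, 54.3, 63.9 and 44.2 in 15B against 2.8, 7.6, 8.6 and 3.0 in the silenced parent. The groups lay apart, but its mean over the 8 arrays was 30.5, just past the filter of 30, and leaving out any 15B array took it below. The log2 fold change was 2.09 with a pseudocount of 10, 3.23 with 1 and 1.27 with 30.

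**Figure D2:**
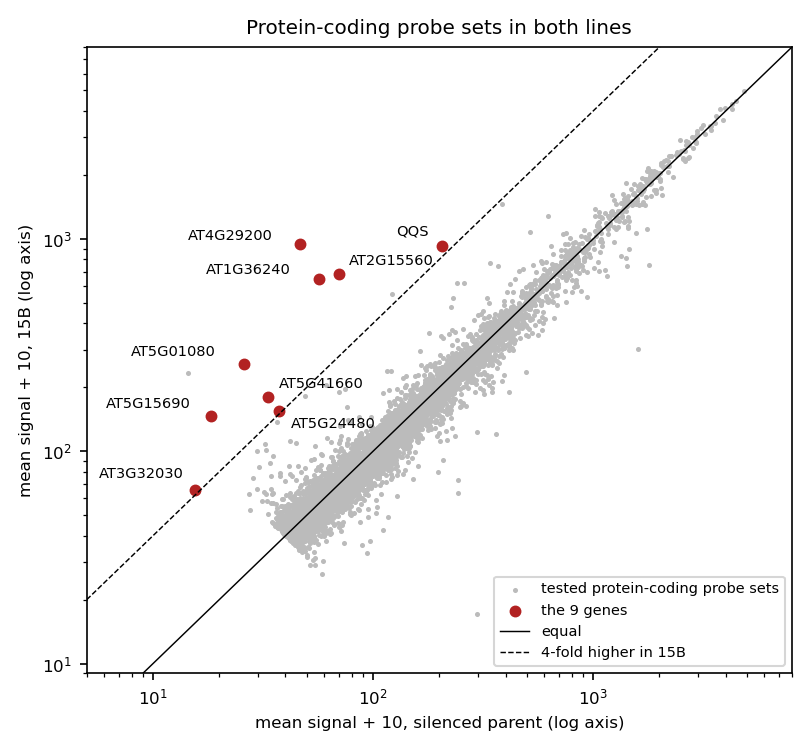
Mean signal plus 10 in 15B (vertical, log axis) against the silenced parent (horizontal, log axis) for the 7292 tested protein-coding probe sets (grey) and the 9 genes (red). The 9 genes lie on or above the dashed 4-fold line, and AT3G32030 and AT5G24480 lie closest to it.

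The median log2 fold change of the 9 genes, which were chosen at 2 or more, was 3.08. For the 7292 tested protein-coding probe sets it was -0.03, and the rule itself set the 9 genes apart from them. The middle 95% of these probe sets lay between -0.50 and 0.45. With the filter on, 11 of the 7292 met the 4-fold rule (0.151%), which is the 9 genes and the pair in the chromosome 1 segment. In the opposite direction 2 tested protein-coding probe sets were at least 4-fold lower in 15B with no overlap.

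The limit was not a natural gap. Just inside it were AT5G24480 (2.07), AT3G32030 (2.09) and QQS (2.2), and just outside it AT1G33710 (1.97), AT5G45570 (1.95) and OSM34 (1.92). OSM34, an osmotin-like protein gene of the defence-related PR5 family, averaged 1445 ± 324 in 15B and 376 ± 101 in the silenced parent (SD, n = 4 each). AT1G33710 and AT5G45570 averaged 42.7 ± 9.23 and 42.2 ± 15.7 in 15B, against 3.28 ± 0.629 and 3.12 ± 1.56 in the silenced parent, and both were below the filter.

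How large the fold changes came out depended on the pseudocount more where the parent signal was low. AT4G29200, at 930 in 15B but 36.6 in the silenced parent, went from 4.63 with a pseudocount of 1 to 3.85 with 30. With a pseudocount of 30, 6 of the 9 genes stayed past 4-fold, and AT5G41660 (1.92), AT5G24480 (1.61) and AT3G32030 (1.27) did not. With a pseudocount of 1 all 9 did, and AT5G15690 (4.25) then stood above AT5G01080 (4.14), AT1G36240 (3.75) and AT2G15560 (3.52). AT4G29200 led under all 3 pseudocounts, and AT4G29200, AT1G36240, AT5G01080, AT2G15560 and AT5G15690 were above the other 4 genes under each. Within these 5, and within the other 4, the order partly changed with the pseudocount.

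**Figure D3:**
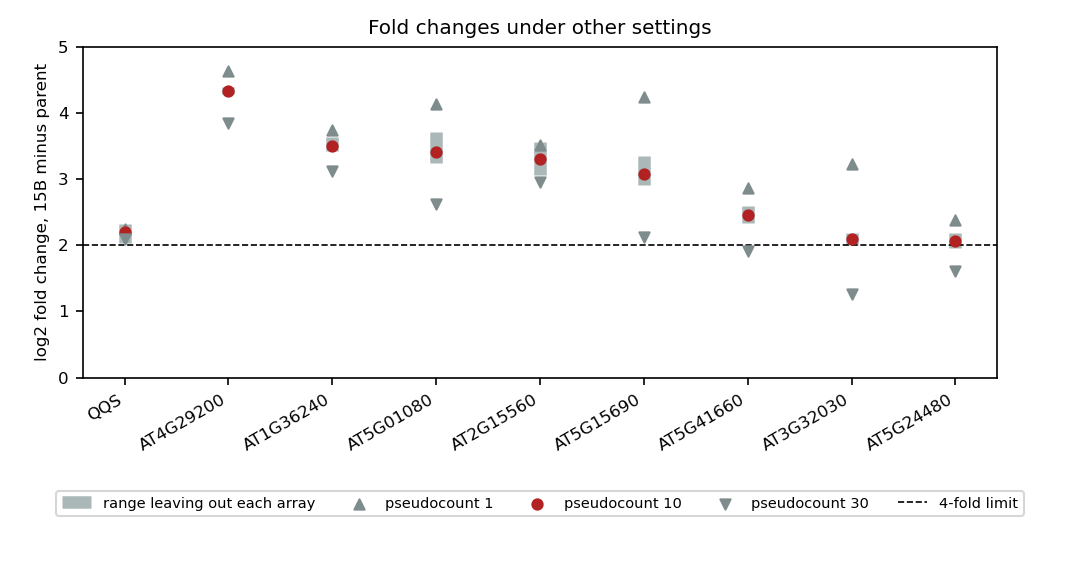
Log2 fold change of each gene, 15B minus silenced parent, with pseudocounts of 1, 10 and 30, and the range when each array is left out in turn with a pseudocount of 10 (shaded; fits in which AT3G32030 fell below the filter are not included). QQS moves least with the pseudocount, and AT5G41660, AT5G24480 and AT3G32030 fall under the dashed 4-fold limit with a pseudocount of 30.

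Within the lines the deviations of the 9 genes from array to array showed no common direction. Among their 36 pairs, the correlation of deviations from the group means over the 8 arrays had a median of -0.01, from -0.93 to 0.92, and 17 were positive. With 4 arrays per line and 5 parent means under the filter level, these correlations cannot show whether the genes vary together. The highest 15B value came from replicate 1 for 4 genes, replicates 2 and 3 for 2 each and replicate 4 for 1. In the silenced parent the highest value came from replicates 3 and 4 for 4 genes each and from replicate 2 for 1.

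Genes whose log2 signals followed QQS most closely over the 8 arrays were ranked by Pearson's r among 7291 other tested protein-coding probe sets. All 8 arrays enter as 2 separate groups, so r mostly follows the line difference, and 66 probe sets reached 0.9. First came AT5G39640 (r = 0.991), at 66.2 ± 3.12 in 15B and 24.2 ± 6.10 in the silenced parent (log2 fold change 1.17). AT3G21540 (0.990) was at 60.8 ± 0.891 in 15B and 39.0 ± 2.77 in the silenced parent (0.53). AT3G58610 (0.986) followed at 2034 ± 13.4 in 15B and 1837 ± 53.5 in the silenced parent (SD, n = 4 each), where the log2 fold change of 0.15 did not pass (limma adjusted p = 0.189), so a high r here says little about size. The next pair, AT3G32030 (0.983) and AT1G36240 (0.978), belong to the 9 genes.

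In gene order the 9 genes fell into different surroundings. They lie on all 5 chromosomes, with 4 on chromosome 5, 2 on chromosome 3 and 1 each on the others, and none of their gene models overlaps another one in RefSeq (TAIR10.1). Gene order and biotypes here are those of this reference genome, and the surroundings in the Ler lines themselves were not determined. Among the 25 loci on each side of QQS, 80.0% were annotated as pseudogenes, a biotype under which RefSeq also places transposon genes. The share was 70.0% around AT3G32030, 48.0% around AT1G36240 and 22.0% around AT2G15560. These 4 exceeded the 90th percentile, 8.00%, of the 7169 placed protein-coding loci with a tested probe set, whose median was 2.00%.

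The remaining 5 genes had a pseudogene share below the 90th percentile of 8.00%. Around AT5G41660 it was 6.00%, above that of 83.7% of the placed protein-coding loci. Around AT5G01080 it was 2.78%, above that of 72.2% of them. AT5G01080 is near the end of its chromosome and has 36 loci in the window. The share was 0 of 50 loci around each of AT4G29200, AT5G15690 and AT5G24480, whose nearest pseudogene-annotated locus was 32, 43 and 36 loci away. AT5G15690, like AT3G32030 above, has an _s_at probe set. For both, the surroundings are those of the named locus and may not be those of the signal.

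**Figure D4:**
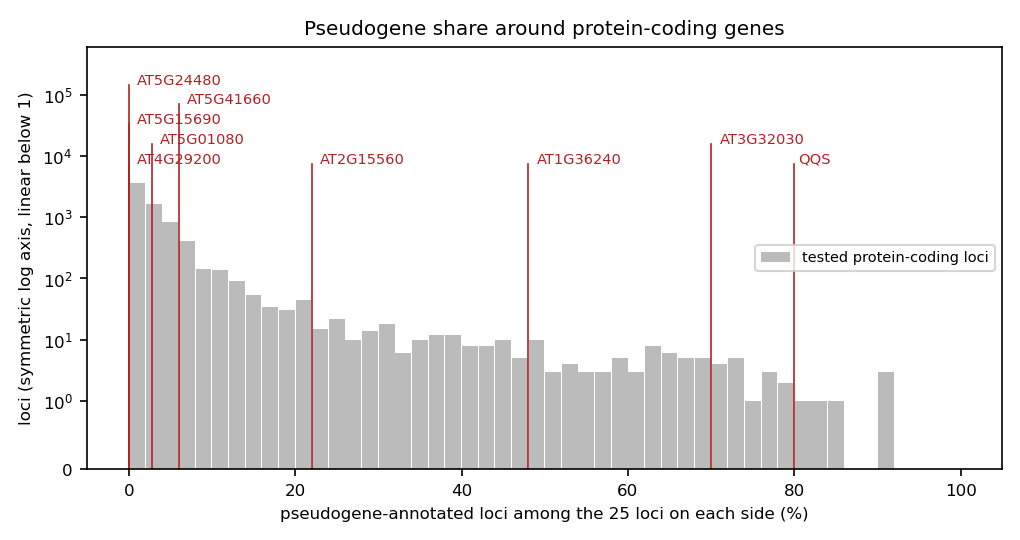
Share of pseudogene-annotated loci among the 25 loci on each side (horizontal, %) for 7169 protein-coding loci with a tested probe set (grey bars of 2 percentage points; number of loci on a vertical symmetric log axis), with the 9 genes marked in red. QQS, AT3G32030, AT1G36240 and AT2G15560 lie in the sparse right tail, and the other 5 at 6.00% or less. AT5G15690 and AT3G32030, measured by _s_at probe sets, are placed by their named loci. Gene order and biotypes are those of RefSeq (TAIR10.1) and were not determined in the Ler lines.

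Signals of neighbouring loci were not used to choose the 9 genes. The 5 nearest loci on each side with a named probe set gave 90 neighbours, of which 41 were tested, 5 called higher and 1 lower, beside 3.16% higher and 3.46% lower over all tested probe sets naming 1 gene. Of the 35 tested protein-coding neighbours, limma called 0 higher and 1 lower in 15B, with 6 at an unadjusted p under 0.05. Over all tested protein-coding probe sets 2.06% were called higher and 3.52% lower, and 19.3% had an unadjusted p under 0.05, so none of these counts stands away from the background. Their median log2 fold change was -0.07. These 35 lie beside 7 of the 9 genes: QQS and AT3G32030 had 0 tested protein-coding neighbours, and AT2G15560 had 1.

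AT5G01075, the locus next to AT5G01080, was the neighbour that fell, to 45.7 ± 5.31 in 15B against 66.1 ± 3.22 in the silenced parent (log2 fold change -0.45, SE 0.11, limma adjusted p = 0.0231, from 0.0170 to 0.0687 over the alternatives). Its groups did not overlap, as was the case in this direction for 8.07% of all tested probe sets. This call was lost without replicate 1 or 4 of 15B and without replicate 2 or 3 of the silenced parent. Next to AT5G41660, AT5G41650 was at 50.4 ± 3.62 in 15B and 36.4 ± 3.89 in the silenced parent, with no overlap of the groups (0.38, SE 0.11, limma adjusted p = 0.0620, from 0.0359 to 0.148), and passed with median centring and without the intensity trend. The best-ranked neighbours of AT4G29200, AT5G15690 and AT5G24480 did not pass. Beside AT4G29200, log2 fold changes were -0.28 for AT4G29260 and 0.32 for AT4G29270. Beside the named locus of AT5G15690 they were 0.24 for AT5G15750 and 0.18 for AT5G15640. Beside AT5G24480 they were -0.31 for AT5G24460 and -0.15 for AT5G24340. AT5G24460 passed without replicate 2 of 15B. The second-ranked neighbour of AT5G41660, AT5G41685, was at 0.13.

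Pseudogene-annotated neighbours were read against their own biotype. Of 24 with a probe set 6 were tested, and 5 of these rose and 0 fell, beside 65.6% called higher and 0.0% lower over all 128 tested pseudogene-annotated probe sets. Probe sets silent in the parent entered the test only through their 15B signal, which holds for both shares. All 6 tested ones lie beside QQS, AT3G32030, AT1G36240 and AT2G15560, where 23 of the 24 were found.

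AT1G36190, 6 loci from AT1G36240, had 448.0 to 606.4 on the 15B arrays, against 1.0 to 18.0 on the parent arrays (log2 fold change 5.10, SE 0.23, from 3.98 to 6.51 over the alternatives, limma adjusted p = 1.32e-08, up to 4.06e-06). With parent signals this low, the size of the fold depends on the pseudocount. AT1G36230, directly next to AT1G36240 and below the filter, was at 17.9 in both lines. It was not tested, so it does not show that there was no change.

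AT3G30670, 24 loci from QQS, had 95.4 to 186.8 in 15B, against 0.3 to 0.9 in the silenced parent (3.73, SE 0.18, from 2.39 to 6.43 over the alternatives, limma adjusted p = 2.02e-08, up to 8.15e-07). The measured loci closer to QQS were below the filter: AT3G30710, 12 loci away, averaged 2.55 in 15B and 2.78 in the silenced parent, and the protein-coding AT3G30730, 4 loci away, 10.8 in 15B and 5.20 in the silenced parent. Both stayed under the filter level in both lines and were not tested, and most loci between QQS and AT3G30670 have no named probe set.

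Beside AT3G32030, AT3G31955 (26 loci away) had 585.8 to 1020.7 in 15B against 1.7 to 15.8 in the silenced parent (5.64, SE 0.23, from 4.47 to 7.07 over the alternatives, limma adjusted p = 4.00e-09, up to 5.47e-07). AT3G31970, 24 loci away and measured by an _x_at probe set, averaged 47.1 ± 7.63 in 15B and 20.2 ± 4.25 in the silenced parent (0.92, SE 0.15, limma adjusted p = 0.00255, up to 0.0117). AT1G36190, AT3G30670 and AT3G31955 are measured by _s_at probe sets, so, as with the _x_at probe set, similar copies elsewhere may contribute to these 4 signals.

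AT2G15510, 8 loci from AT2G15560 and measured by a probe set with the suffix _at, rose to 84.6 ± 17.1 in 15B, against 32.3 ± 5.82 in the silenced parent (SD, n = 4 each; 1.15, SE 0.14, limma adjusted p = 3.03e-04, up to 0.00186). AT2G15520, the other tested pseudogene-annotated neighbour of AT2G15560, 7 loci away, was at 0.14 without passing.

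**Figure D5:**
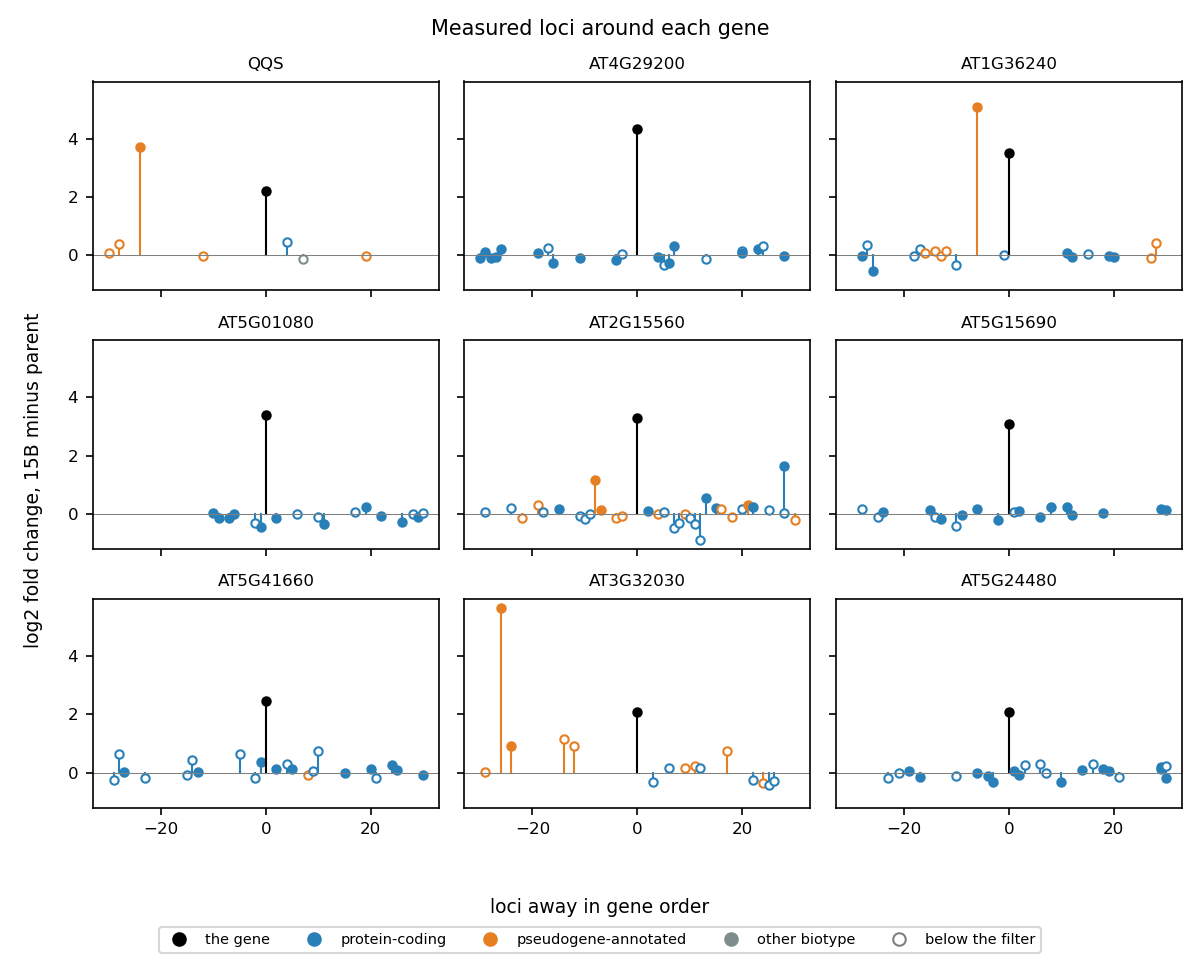
Log2 fold change, 15B minus silenced parent, of every locus with a named probe set within 30 loci of each gene in gene order (horizontal, loci), with the gene itself in black, protein-coding loci in blue and pseudogene-annotated loci in orange. Filled points were tested and open points were below the filter. Around AT4G29200, AT5G01080, AT2G15560, AT5G15690, AT5G41660 and AT5G24480 no measured neighbour reaches the gene's own value. Near each of QQS, AT1G36240 and AT3G32030, 1 orange point, from an _s_at probe set, exceeds it. AT5G15690 and AT3G32030 are themselves measured by _s_at probe sets. Gene order is that of RefSeq (TAIR10.1) and was not determined in the Ler lines.

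Genes of starch synthesis and breakdown were listed because QQS affects starch content. Named probe sets covered 6 of the 36 listed loci, and 5 were tested, of which 1 rose and 0 fell, with 2 at an unadjusted p under 0.05. The background over all tested probe sets was 3.13% higher, 3.57% lower and 21.5% at that unadjusted p, and the list median was 0.01. APL3, a large subunit of ADP-glucose pyrophosphorylase, the enzyme that makes the sugar donor for starch, averaged 52.2 ± 5.94 in 15B and 30.1 ± 7.19 in the silenced parent (SD, n = 4 each). Its lowest 15B array, 46.0, lay above its highest parent array, 39.1, as did those of 5.58% of all tested probe sets (log2 fold change 0.65, SE 0.14, limma adjusted p = 0.0187, from 0.00777 to 0.0583 over the alternatives). This call was lost without replicate 1 or 2 of 15B and without replicate 2 or 3 of the silenced parent.

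The other tested starch genes did not pass. DPE1, a plastid enzyme that rearranges glucan chains, was at 125 ± 6.22 in 15B and 159 ± 24.4 in the silenced parent (-0.31, limma adjusted p = 0.118). Log2 fold changes were 0.27 for the alpha-amylase gene AMY1, -0.15 for PWD, which phosphorylates starch for breakdown, and 0.01 for the branching enzyme gene SBE2.2. Without parent replicate 4 the list had 2 calls. Of the NF-YC genes, which include a partner of the QQS protein, and of 10 protein-coding loci known to depend on DNA methylation, 0 had a named probe set, and they were not analysed here. Many probe sets carry no gene name in the annotation used, so such loci may still be measured on the array.

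Organ markers were listed as a check on the makeup of the tissue. Of 3 leaf and 3 root genes limma called 0, and 0 had an unadjusted p under 0.05, beside 3.13% called higher, 3.57% called lower and 21.5% at that unadjusted p over all tested probe sets. With 6 genes, a count of 0 says little about the makeup of the tissue. RCA, the activase of Rubisco, was at 4054 ± 478 in 15B and 3747 ± 297 in the silenced parent, and LHCB4.1, a light-harvesting protein gene, at 4068 ± 280 in 15B and 4265 ± 465 in the silenced parent (SD, n = 4 each). The root hair expansin genes EXPA18 and EXPA7 were at 0.08 and -0.09 on the log2 scale. The summed signal of the leaf list was 10222 to 11861 in 15B and 9276 to 11297 in the silenced parent, and that of the root list 2763 to 3194 in 15B and 2747 to 3264 in the silenced parent. Of 8 pollen markers 1 had a named probe set, at 2.9 to 17.3 in 15B and 3.0 to 13.5 in the silenced parent, below the filter. Flower and seed markers were not analysed here.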

How the data were processed

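Signals of 22810 probe sets on 8 arrays were used as deposited, as intensity values on a linear scale. How the authors summarised probes and corrected background is not given in the sources used here. The 2% trimmed mean of each deposited array was 100.0, so totals cannot be compared. The 64 control probe sets were left out, values were transformed as log2(signal + 10), and probe sets with a mean under 30 were not tested (13822 tested). Lines were compared over all tested probe sets with limma 3.58.1 in R 4.3.3 (eBayes with an intensity trend, two-sided, Benjamini-Hochberg, 0.05), and the steps were checked on simulated data. The number of arrays limits the precision. No 2 arrays shared more than 0.958% of values.

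Names came from the 2016 platform annotation, updated to RefSeq (TAIR10.1): of 22746 probe sets kept, 13513 name 1 gene, 13436 of these were matched, and 503 name several. The rest carry no gene name in this annotation. Only matched probe sets that name 1 gene could enter the choice of the 9 genes, the neighbours and the lists. RefSeq (TAIR10.1) also gave the biotype, chromosome and order of the loci and the overlaps of gene models, none of which was determined in the Ler lines. The 9 genes and all lists were chosen with earlier results of these data known. Named beside them are, per list and per gene's neighbours, up to 4 genes past the threshold or up to 2 with the smallest p, the 3 genes on each side of the 4-fold limit and the 5 most like QQS. Other loci given for context were chosen after their values were seen. The alternatives tried were pseudocounts of 1 and 30, a filter of 60 or none, median centring, quantile normalization, other variance models, a threshold of 0.01, the replicate number as a block and leaving out each array.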

Additional observations from a re-analysis of the deposited data

Results flagged for a closer look

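Among 82 sets of 4 values examined, 7 had 1 array far from the other 3, and chance does this in about 1 in 20. None of the sets belonging to the 9 genes was among them. AT2G15560 in 15B came close to being flagged, at 1080.7 in replicate 1 against 503.8 to 603.0 in the others. Of the arrays themselves, outlier cells numbered 1353 on replicate 2 of 15B, with 403 to 505 on the rest of that line. Scanner background was 198 and noise 13.5 on parent replicate 4, with 77.6 to 94.3 and 3.91 to 5.15 on the rest of the parent arrays. Replicate 2 of 15B was also the low array for AT1G36190 (448.0 against 580.3 to 606.4) and for AT5G15750 (222.3 against 250.3 to 255.0). OSM34 was at 963.3 in replicate 1 of 15B, against 1550.0 to 1662.1 in the others. AT1G32010 was at 2.9 in replicate 4 of the silenced parent, against 1.4 to 1.5.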

How the results depend on the processing

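Since the 9 genes were chosen for a large fold with no overlap, that they kept their sign says nothing about stability. Their count past 4-fold was 9, except for 6 with a pseudocount of 30, 8 with a filter of 60 and 8 to 9 when each array was left out. Without any 1 array of 15B, AT3G32030 fell below the filter. The 926 changed probe sets (432 higher, 494 lower) became 392 (231 and 161) at an adjusted p under 0.01, and 523 to 993 (291 to 452 higher, 232 to 541 lower) when each array was left out, with the lowest total when parent replicate 3 was omitted and 588 when replicate 2 of 15B was. Calls in the starch list were 0 with a filter of 60, 0 at 0.01 and 0 to 2 leaving out each array. Calls among the neighbours were 6, but 3 with a filter of 60, which tests fewer of them, and 5 to 7 leaving out each array. With the replicate block 1078 probe sets changed (510 higher, 568 lower), and no call in the starch, neighbour and organ lists changed in number. The correlation of residuals between same-numbered arrays was 0.25, -0.01, 0.05 and 0.05, so the numbers were not taken as pairs. The planned count among relatives of the 9 genes by protein sequence was not run, since no protein sequences were used here.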

Other observations

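SQN, a cyclophilin gene 28 loci from AT2G15560 and named here after its values were seen, has 2 probe sets that differ. The probe set 265483_at was at 75.4 to 109.8 in 15B and 13.0 to 29.4 in the silenced parent (log2 fold change 1.65, SE 0.17, limma adjusted p = 4.75e-05, up to 4.43e-04 over the alternatives). The probe set 265541_at was at 0.4 to 3.2 in 15B and 0.5 to 2.7 in the silenced parent, below the filter.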
